A study of Gallus gallus with 12 samples.

Results

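This report compares the hypothalamus of heat-stressed broilers with that of birds that were not heated, gene family by gene family. The comparison comprised 8 of the 12 arrays of the series, 4 of heat stress (HS) and 4 of the control (CL), chosen by their titles. All birds were full-sib or half-sib Anak_40 female broilers at the age of 56 d, reared at 25°C in a climate chamber with free food and water. HS birds were moved to 34°C for 24 h and dissected straight afterwards, and CL birds stayed at 25°C. A temperature recovery group (TR), held at 34°C for 24 h and then at 25°C for 24 h, also had 4 arrays. Its values are given here only as a reference, but its arrays also entered the estimate of the spread in the main test. Each array was hybridised with Cy3-labelled RNA of 1 bird, so that each value below is the hypothalamus of 1 animal.

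The hypothalamus holds the neurons that sense body temperature and set heat loss, water balance, feeding and reproduction, and much of its output is carried by neuropeptides and by dopamine. In birds arginine vasotocin, the product of the gene listed as AVP, is the antidiuretic hormone. Heat shock proteins are chaperones that refold or hold damaged proteins, and in many cells their messengers rise within minutes to hours of heating.

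Some label fields of the samples go against the titles and name spleen, male birds and a virus infection. The female-specific HINTW, on the W chromosome that only hens carry, was between 17.47 and 17.93 on the log2 scale on all 12 arrays. AVP and NPY were above background on all 8 HS and CL arrays, HCRT on 3 of 4 in each group and NKX2-1, a hypothalamic transcription factor, on 4 HS and 3 CL arrays. Of the lymphoid markers, CD3E was between 8.64 and 9.31 and PTPRC between 7.70 and 8.72 on these 8 arrays, with a list median between -0.33 and 0.29 around the mean of the 8 arrays. No tested probe was named for SIM1, OTP, POMC, AGRP, OXT, PMCH and PAX5. The median signal over background was 15.62 to 17.29 on HS arrays and 11.81 to 13.67 on CL arrays. The number of spots above background was 33505 on HS4 and between 35794 and 36805 on the other 7. Each group lay on a slide of its own and CL was scanned on another day, so that heat and these steps cannot be told apart in any result below.

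Skeletal muscle messengers stood out on HS2 and CL2. TNNT3, the fast skeletal troponin T, was 12.56 on HS2 and 14.10 on CL2, and between 6.48 and 8.66 on the other 6 arrays. The median of 11 striated muscle genes was 2.08 above the mean of the 8 arrays on HS2 and 4.16 above it on CL2, and -1.62 to -0.25 on the others. Because both groups hold 1 such array, each named gene's call below that was lost without HS2 and CL2 is given with its adjusted p or change there.

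A probe was called differentially expressed (DE) when its fold change (FC) in limma was over 1.5 with p under 0.05 and FDR under 0.15, and adjusted p-values are limma's Benjamini-Hochberg values over 34909 probes. Of these probes, 1249 (3.58%) were DE, 645 higher and 604 lower in HS, and 987 of them had no gene name here. With 1 probe per gene, 4302 named genes were tested. Of them, 78 (1.81%) were up-regulated and 47 (1.09%) down-regulated in HS vs. CL. Every HS array lay above every CL array in 228 genes (5.3%) and below in 257 (5.97%), which held 56 of the up-regulated and 30 of the down-regulated genes. The median change over all named genes was -0.01 on the log2 scale, and 2079 of the 4302 had a higher and 2223 a lower mean in HS. Counts of members with a higher or lower mean below are to be read against these numbers. Among the 78 up-regulated genes HS4 was the highest array in 47 (60.3%) and CL2 the lowest in 42 (53.8%), where the shares over 4274 genes with all values were 18.8% and 19.7%. These shares are not a like baseline, because no CL array was highest and no HS array lowest in an up-regulated gene. Over the 4274 genes HS1 to HS3 were highest in 9.55%, 9.8% and 9.05%. CL1, CL3 and CL4 were lowest in 10.2%, 8.82% and 11.3% of them. Leaving out 1 array moved the number of DE genes between 40 (without HS3) and 188 (without HS1). It was 52 without CL2 and 63 without HS4, and 31 with both HS4 and CL2 left out.

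The gene families differed in how many members changed. In the plot of 64 gene lists the neuropeptides, the midbrain dopamine markers and the catecholamine genes, which share some members, had the most up-regulated members for their size. By the brightest probe of each gene, the chaperone lists had none in either direction, where few would be expected at the shares over all named genes. Each count of calls below is to be read against those shares, 1.81% up and 1.09% down. Where a list is given below with no call in limma, the methods' t-test with the same limits also called none of its members.

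**Figure D1:**
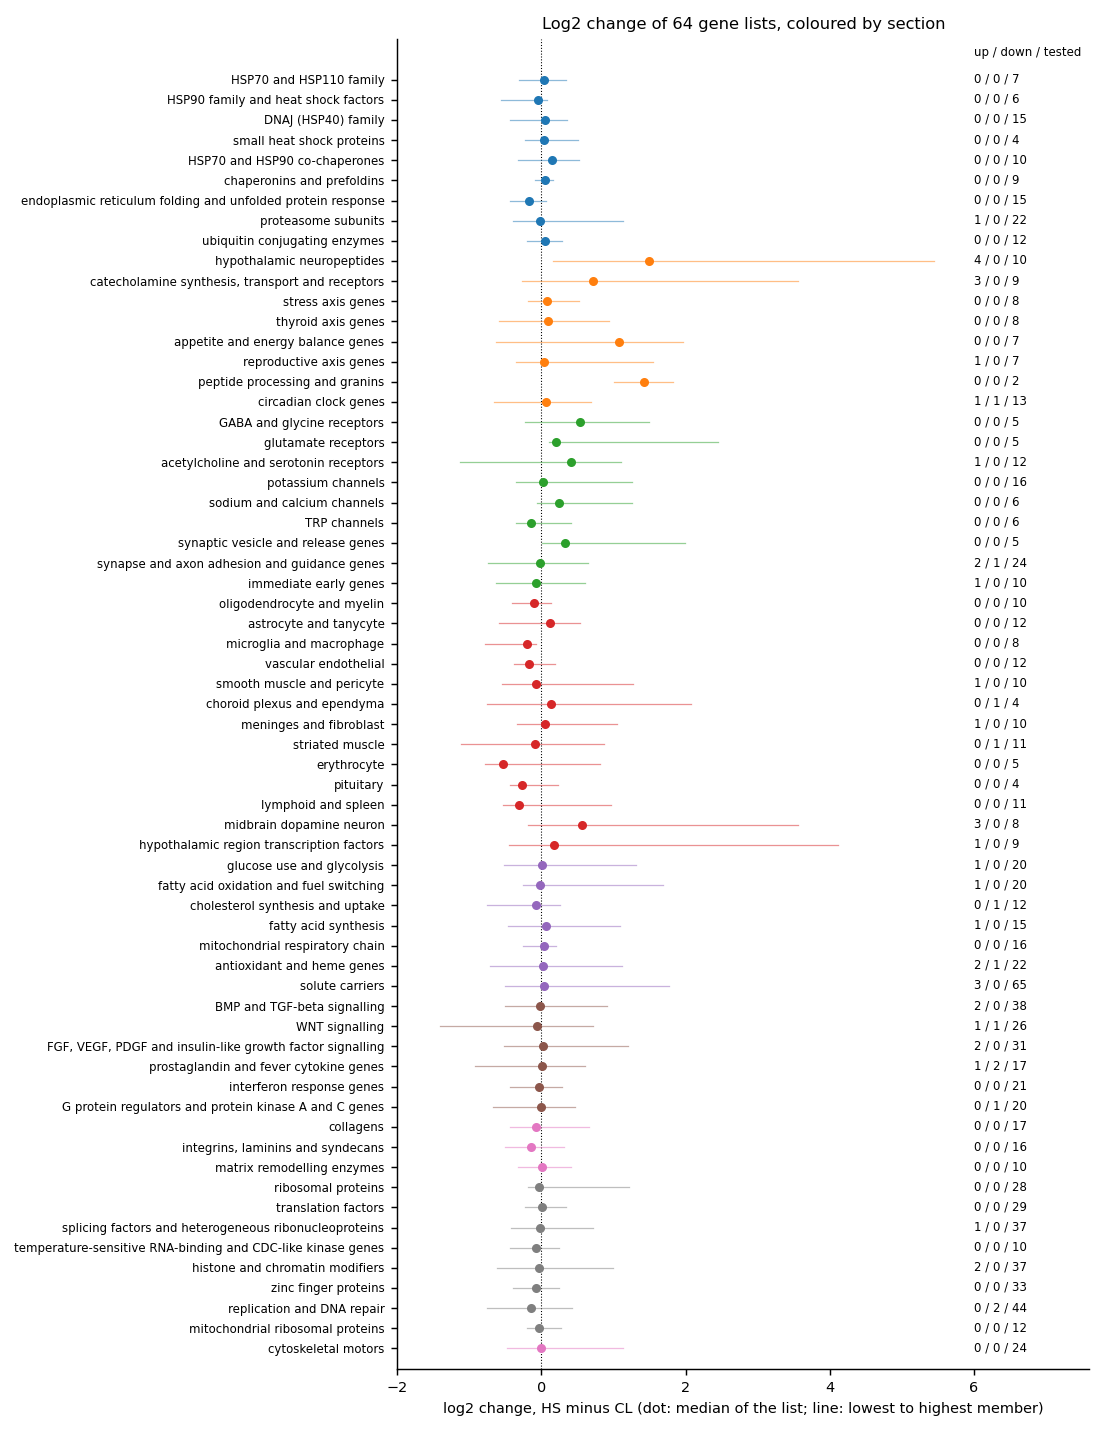
Log2 change in HS vs. CL (x axis, HS minus CL) for 64 gene lists, with a dot at the list's median, a line from its lowest to its highest member and the numbers of up-regulated, down-regulated and tested genes at the right. The median is 1.49 for hypothalamic neuropeptides and 0.72 for catecholamine genes, while most lists lie close to 0.

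Hypothalamic neuropeptide genes had higher means in HS. All 10 tested members had a higher mean in HS, with a median log2 change of 1.49 against -0.01 over all named genes, and 4 of the 10 were up-regulated, against a background of 1.81%. SST1, a precursor of somatostatin, which inhibits growth hormone and thyrotropin release, was 10.36, 11.61, 12.52 and 14.17 on HS1 to HS4 and 10.11, 5.43, 8.55 and 6.85 on CL1 to CL4. HS1 and CL1 lay close together without overlap, and the log2 change was 4.43 ± 1.03 (SE, n = 4 and 4, adjusted p = 0.0549, all 3 probes DE). ADCYAP1, the precursor of the neuropeptide PACAP, was 8.11, 8.04, 9.78 and 10.00 in HS and 7.25, 5.34, 3.25 and 7.22 in CL, where 3 of 4 arrays were above background. Every HS array was above every CL array, by a mean log2 change of 3.22 ± 0.88 (adjusted p = 0.0814, 3 of 4 probes DE).

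GNRH1, the releasing hormone of the reproductive axis, was 7.42, 6.79, 8.07 and 8.86 in HS and 6.60, 5.91, 6.26 and 6.16 in CL. The groups did not overlap, and the change was 1.55 ± 0.37 (adjusted p = 0.0569). AVP was 16.38, 17.70, 18.38 and 18.71 in HS, and 17.68, 7.68, 13.60 and 10.43 in CL. CL1 lay among the HS arrays and the CL arrays spread over a range of many-fold, so that the mean change of 5.44 ± 1.85 (adjusted p = 0.137) had a 95% interval of 1.38 to 9.51. In TR, AVP was between 10.96 and 16.97. NPY, an orexigenic peptide, was not called, with a change of 1.97 (95% interval 0.21 to 3.72, adjusted p = 0.196). The members VIP, HCRT (orexin) and TRH, singled out after their values were seen, had changes of 1.43, 1.08 and 0.17 with intervals that included 0.

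The arrays of HS differed widely among themselves in the neuropeptides. HS4 had the highest value of all 10 members, and the list's median level, with each gene centred on the mean of the 8 arrays, was 0.26, -0.06, 1.18 and 2.5 on HS1 to HS4 and -0.04, -1.2, -1.29 and -0.04 on CL1 to CL4. HS2 thus lay at the level of CL1 and CL4. On HS4 the myelin genes stood lowest of the 8 arrays (list median -0.25, others -0.05 to 0.08). A hypothalamic sample with fewer cells of a type and one with less RNA per cell cannot be told apart in these bulk data, and the part of tissue content in the neuropeptide values was not tested. The number of DE neuropeptides was 1 without HS3 (GNRH1, ADCYAP1 and AVP lost), 2 without HS4, 2 without CL2, 2 without HS2 and CL2 (ADCYAP1 and AVP lost, adjusted p = 0.167 and 0.305) and 0 without HS4 and CL2 or by the methods' t-test. The list's median was 0.77 without HS4, with or without CL2. Without single arrays the lost calls had adjusted p between 0.167 and 0.272 for AVP (6 arrays, HS2 to HS4 and CL2 to CL4), between 0.17 and 0.199 for ADCYAP1 (HS3, HS4, CL2) and 0.156 for GNRH1 (HS3), and AVP changed by 3.89 without CL2. With normexp background correction, which treats dim spots differently, ADCYAP1 changed by 2.13 and HCRT by 0.54.

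**Figure D2:**
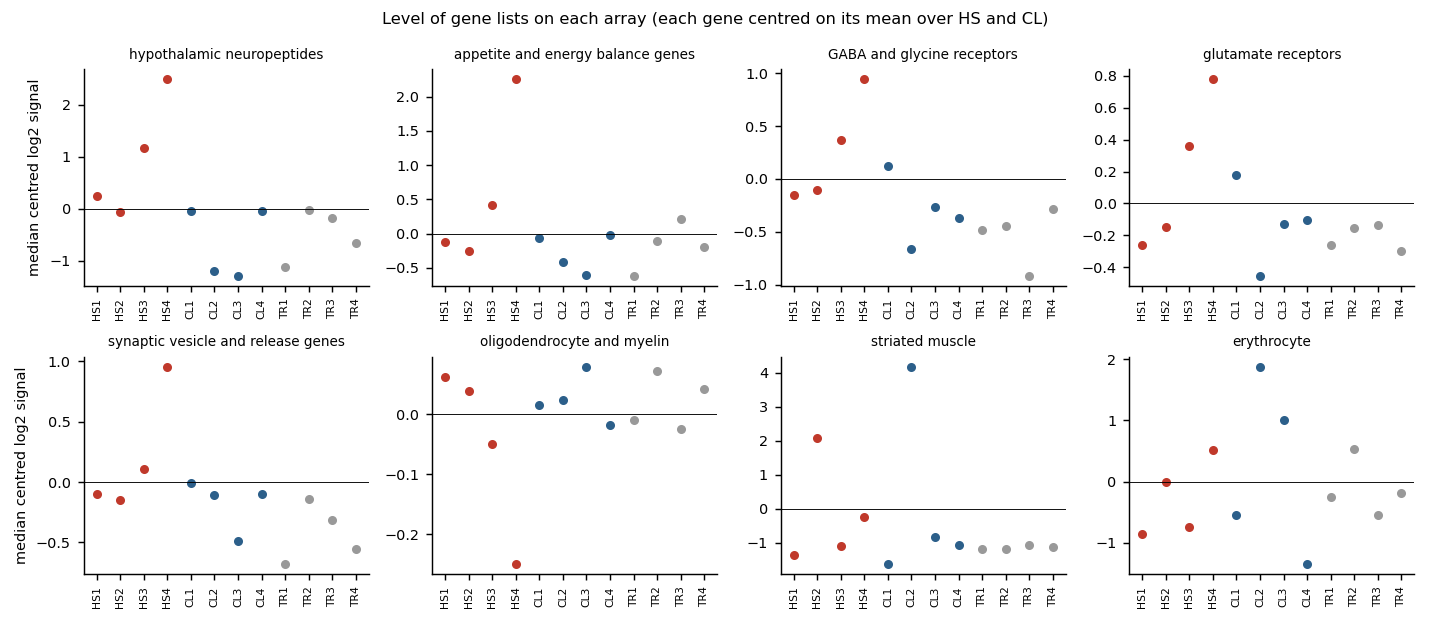
Median level of 8 gene lists on each array (y axis, log2 signal with each gene centred on its mean over HS and CL), with HS in red, CL in blue and TR in grey. HS4 (2.5) and HS3 (1.18) are highest for neuropeptides, and CL2 (4.16) and HS2 (2.08) for striated muscle.

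Catecholamine genes also rose in part. Of 9 tested members 3 were up-regulated, against a background of 1.81%, and none down-regulated, 8 had a higher mean in HS, and the median change was 0.72. TH, tyrosine hydroxylase, the rate-limiting enzyme of catecholamine synthesis, was 5.04, 6.30, 7.24 and 9.54 in HS and 4.68, 4.50, 2.39 and 2.32 in CL, where 1 of 4 arrays was above background. HS1 was just above CL1, so that all HS arrays were higher, and the change was 3.56 ± 0.89 (adjusted p = 0.0652). Because 3 CL arrays were not above background for TH, its change depends on how dim spots are treated, and it was 1.62 with normexp (adjusted p = 0.127). GCH1, the first enzyme in making tetrahydrobiopterin, the cofactor of tyrosine hydroxylase, was 6.02, 6.97, 6.24 and 6.59 in HS against 5.34, 5.36, 5.70 and 5.43 in CL. It changed by 1.0 ± 0.22 (adjusted p = 0.0478) with both probes DE and no overlap, and by 0.40 with normexp, where GCH1 was not called.

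DRD2, a dopamine receptor, was 6.92, 6.91, 6.88 and 7.12 in HS and 6.16, 6.19, 6.09 and 6.51 in CL. This was a smaller change (0.72 ± 0.11) with a narrow spread and an adjusted p of 0.0185, and in TR the gene was between 5.76 and 6.12. The DRD2 call was kept in 22 of 23 alternatives, all but normexp (change 0.45). The TH call was lost without HS3 (change 3.49, adjusted p = 0.164), at FDR under 0.05 and by the methods' t-test, which called 2 of the 9 genes. With HS4 and CL2 left out 2 of the 3 genes were still DE and the median of the list fell to 0.30, it was 0.43 without HS4, and TH was the 1 gene DE with normexp. Of 8 tested genes in the midbrain dopamine neuron list, 3 were up-regulated (TH, DRD2 and CALB1), against a background of 1.81%. TH and DRD2 are the same genes as in the catecholamine list. No other member was called, and of the 8 genes 6 had a higher and 2 a lower mean in HS, with a lowest change of -0.19. No tested probe was named for the list's defining markers EN1, SLC6A3 and LMX1A.

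Other neuronal genes were among the largest changes. ISL1, a transcription factor of hypothalamic neurons, changed by 4.12 (adjusted p = 0.115) and CALB1, the calcium-binding protein calbindin, by 3.40 (adjusted p = 0.144). ISL1 was the 1 call among 9 hypothalamic region transcription factors, against a background of 1.81%. Of these 9, 5 had a higher and 4 a lower mean in HS (median 0.18). GAD1, the GABA-synthesising enzyme, and the neurofilaments NEFM and NEFL and the growth-associated STMN2 were singled out after their values were seen. GAD1 was 9.33, 10.41, 12.56 and 14.13 in HS and 10.28, 6.38, 8.41 and 7.63 in CL, with CL1 above HS1, and changed by 3.43 (adjusted p = 0.097). NEFM, NEFL and STMN2 changed by 3.1, 2.53 and 2.43 (adjusted p = 0.0807, 0.0893 and 0.111), and in all 6 genes CL1 overlapped the HS arrays, HS4 was highest and CL2 lowest. Each of the 6 calls was lost when HS3, HS4, CL2 or CL3 was left out (adjusted p 0.163 to 0.294), and those of ISL1, CALB1, GAD1 and STMN2 also without CL4. Without HS4 or CL2 the change was 3.27 for ISL1, and without HS4 it was 2.59 for GAD1 and 1.71 for STMN2. None of the 6 was called without HS2 and CL2 (adjusted p 0.168 to 0.266), and with normexp ISL1 changed by 2.71.

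**Figure D3:**
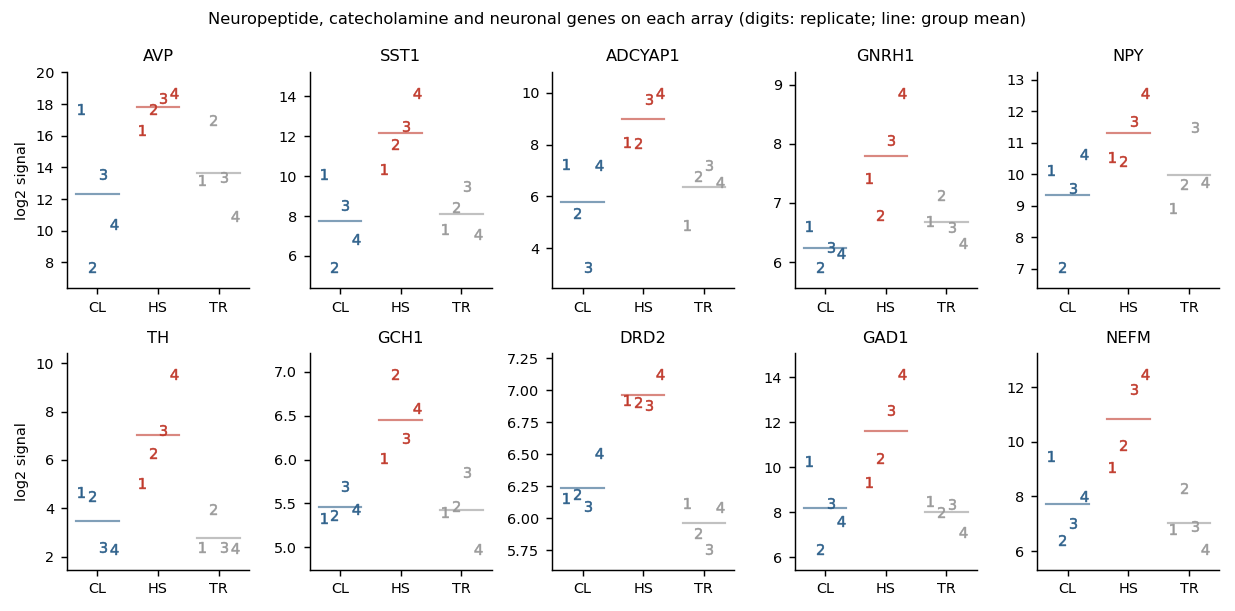
Log2 signal (y axis) of 10 neuropeptide, catecholamine and neuronal genes in CL, HS and TR, where each digit is the array of that replicate number and the line is the group mean. HS4 is the highest array in most panels, and DRD2 differs with the narrowest spread (HS 6.88 to 7.12, CL 6.09 to 6.51).

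Receptors and channels of neurons mostly did not pass the test. CHRM4, a muscarinic acetylcholine receptor, was the 1 up-regulated gene among 12 acetylcholine and serotonin receptors. It was 8.31, 7.60, 8.09 and 8.30 in HS and 7.0, 6.68, 7.48 and 6.75 in CL, a change of 1.10 ± 0.24 (adjusted p = 0.0466) with no overlap that was kept in 22 of 23 alternatives, all but the one without HS4 and CL2 (adjusted p = 0.193). No member was called among 5 GABA and glycine receptors (median 0.54), 5 glutamate receptors (0.20), 16 potassium channels (0.02), 6 sodium and calcium channels (0.25), 6 TRP channels (-0.14) or 5 synaptic vesicle genes (0.33). At an unadjusted p under 0.05 these lists had 2, 2, 3, 2, 2 and 1 members, where 834 of all 4302 named genes (19.4%) did. GRIA2, an AMPA receptor subunit, changed by 0.53 (interval 0.10 to 0.95) and SYP, synaptophysin, by 0.33 (-0.22 to 0.88). GRIA2 passed when HS1 or HS2 was left out, and a dimmer probe of it was DE (0.84, adjusted p = 0.133). Among 24 synapse and axon guidance genes the ephrin EFNB2 fell by 0.74 (adjusted p = 0.0429), while the ephrin receptor EPHA7 rose by 0.62 (adjusted p = 0.0796) and EFNA5 by 0.65 (adjusted p = 0.131). No other member was called, against backgrounds of 1.81% up and 1.09% down. The EPHA7 call was lost without CL1, CL2, HS3 or HS4 (change 0.50 to 0.58) and that of EFNA5 without CL2, CL3, CL4, HS3 or HS4 (0.44 to 0.70). Neither EPHA7 (change 0.58) nor EFNA5 (0.56, adjusted p = 0.237) was called without HS2 and CL2, and with normexp none of EFNB2 (-0.50), EPHA7 (0.53) and EFNA5 (0.53) was.

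The endocrine axes other than these peptides showed few calls. None of 8 stress axis genes, 8 thyroid axis genes and 7 appetite genes was DE, with medians of 0.08, 0.09 and 1.08, and the appetite list shares NPY and HCRT with the neuropeptides. At an unadjusted p under 0.05 there were 1, 0 and 2 genes. FKBP5, a co-chaperone of the glucocorticoid receptor and itself induced by glucocorticoids in mammals, was named only after its values had been seen. It was 12.31, 12.55, 12.67 and 12.56 in HS and 11.69, 12.07, 12.06 and 12.21 in CL. The groups did not overlap, but the change of 0.52 (interval 0.23 to 0.80, adjusted p = 0.0665) was under the fold limit of 0.585, and it was 0.59 and passed without HS1. Its other probe, which is dimmer, changed by 1.035 and was DE (adjusted p = 0.0345). Of 13 clock genes PER2, a repressor of the clock, fell by 0.66 (adjusted p = 0.146) and NFIL3, a repressor of clock-controlled genes, rose by 0.69 (adjusted p = 0.0592). No other clock gene was called, against backgrounds of 1.81% up and 1.09% down. In limma 7 of the 13 had an unadjusted p under 0.05, against 19.4% of all named genes. The PER2 call was lost when any of 6 arrays was left out (adjusted p 0.202 to 0.286, HS1, HS3, HS4 and CL2 to CL4), and NFIL3 changed by 0.54 without CL4. Without HS2 and CL2 the adjusted p was 0.216 for PER2 and 0.168 for NFIL3. The prohormone processing genes CHGA and CPE, the only 2 tested in their list, changed by 1.83 (interval -0.18 to 3.83) and 1.01 (0.02 to 2.0) and were not called. CPE passed without HS2, with a change of 1.29.

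No chaperone gene passed the criteria used by its brightest probe. A dimmer probe was DE in FKBP5 (1.035, adjusted p = 0.0345) and in HSP90AB1 (-0.68, adjusted p = 0.0685). With 1 probe per gene, none of 61 chaperone and co-chaperone genes in 7 lists was DE in either direction by limma or by the methods' t-test. At the limma backgrounds of 1.81% up and 1.09% down, few calls would be expected among 61 genes. An unadjusted p under 0.05 was found for 9, against 19.4% of all named genes. The mean in HS was higher for 33 and lower for 28, the median change was 0.02 and the extremes were -0.56 and 0.52. The 95% interval lay within the fold limit for 47 of 61 genes (77%) and for 65.9% of all named genes, so that for the other chaperones a change of 1.5-fold stayed within the interval. HSPA8, the constitutive HSP70, was 17.52, 17.45, 17.29 and 17.59 in HS and 17.52, 17.12, 17.17 and 17.28 in CL (change 0.19, interval -0.07 to 0.45). HSP90AA1, the inducible HSP90, changed by 0.07 (-0.28 to 0.42) with no value for CL4, whose spot was an outlier. DNAJC13, an HSP40 family member of endosomes, changed by -0.14 (-0.33 to 0.05, adjusted p = 0.371).

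HSP90AB1, the constitutive HSP90, was the chaperone with the lowest change. It was 11.94, 11.99, 11.81 and 12.15 in HS and 12.52, 12.84, 12.57 and 12.20 in CL. The groups did not overlap, and the change of -0.56 (interval -0.85 to -0.27, adjusted p = 0.0558) missed the fold limit. It passed the limit in 3 alternatives (array weights, without HS4 at -0.62, and without CL4 at -0.67), and of its 4 probes 1, the dimmest, was DE. HSPH1, of the HSP110 family, and the small heat shock protein HSPB9 were singled out after their values were seen and changed by 0.34 (0.02 to 0.67) and 0.50 (0.10 to 0.91), and HSPB9 passed without HS1 at 0.68. The small heat shock proteins HSPB1 and CRYAB changed by -0.22 (-0.78 to 0.33) and -0.10 (-0.28 to 0.07). HSPA5, the HSP70 of the endoplasmic reticulum, changed by -0.31 (-0.67 to 0.06), and 13 of 15 genes of endoplasmic reticulum folding had a lower mean in HS (median -0.17), with none called and none at an unadjusted p under 0.05. DNAJB14 had every HS array above every CL array, as did 5.3% of all named genes, at a change of 0.34 (0.15 to 0.54). Its dimmer probes changed by 0.06 to 0.17 and were not DE.

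**Figure D4:**
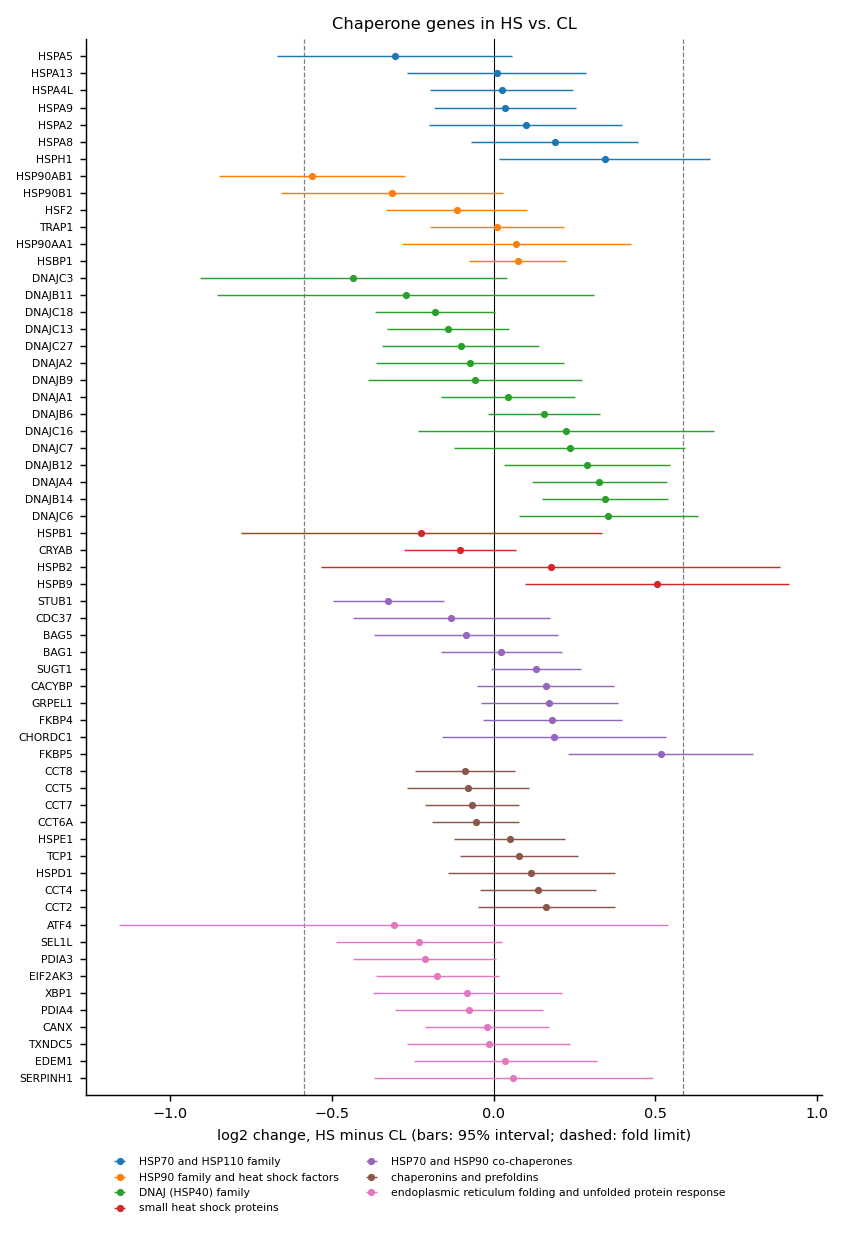
Log2 change in HS vs. CL (x axis) of 61 chaperone and co-chaperone genes, with bars for the 95% interval, dashed lines at the fold limit (0.585 either way) and colours for the 7 lists. By the brightest probe of each gene, all changes lie between -0.56 (HSP90AB1) and 0.52 (FKBP5).

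Genes of protein turnover and of temperature-dependent RNA binding also had few calls. Among 22 proteasome subunits PSMD2 was up-regulated (1.14, adjusted p = 0.117), but 1 of its 5 probes was DE and the others changed by -0.32 to -0.07, so that the probes disagree. That call was lost without HS1, HS2, HS3, HS4, CL2 or CL3 (adjusted p 0.165 to 0.244) or without HS2 and CL2 (0.311), and the median of the 5 probes changed by -0.09. None of 12 ubiquitin conjugating enzymes was called (2 at an unadjusted p under 0.05). RBM3, an RNA-binding protein that is induced by cooling in mammalian cells, was 14.43, 14.72, 14.31 and 14.71 in HS and 14.92, 14.97, 14.96 and 15.06 in CL. Every HS array was lower, by 0.43 on average (change -0.43, interval -0.69 to -0.18, adjusted p = 0.0779), which is under the fold limit. The other RBM3 probe changed by -0.49 (adjusted p = 0.0174), also under the fold limit. Of the 10 genes in the list of RBM3 none was DE (3 at an unadjusted p under 0.05). Every HS array lay below every CL array in 4 of the 10 and above in 1, against 5.97% and 5.3% of all named genes. Among 37 splicing factors PTBP3 rose by 0.71 (adjusted p = 0.0926), and among 37 histone and chromatin modifiers the deacetylases HDAC9 and HDAC7 rose by 0.99 (adjusted p = 0.129) and 0.62 (adjusted p = 0.0499). Without HS4 HDAC9 changed by 0.64 and HDAC7 by 0.58, neither of them called. HDAC7 was also lost without CL4 (0.51), HDAC9 without CL1, CL2, CL3 or HS3 (adjusted p up to 0.264) and PTBP3 without HS3, HS4, CL2 or CL4 (0.54 to 0.70). HDAC9 and PTBP3 were also lost without HS2 and CL2 (adjusted p = 0.176 and 0.178), and with normexp HDAC9 (0.69), HDAC7 (0.56) and PTBP3 (0.36). No gene was called among 28 ribosomal proteins (median -0.03, 1 at an unadjusted p under 0.05) and 29 translation factors (0.01, with 8), against the background of 19.4%.

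Metabolic genes held 7 up-regulated and 2 down-regulated members of 165 (4.24% and 1.21%, against backgrounds of 1.81% and 1.09%). PDK4, which turns off pyruvate dehydrogenase and so spares glucose, was 9.99, 10.38, 10.22 and 10.82 in HS and 9.32, 8.63, 8.93 and 9.29 in CL. All HS arrays were above all CL arrays, and the change was 1.31 ± 0.30 (adjusted p = 0.0518). The PDK4 call was lost without HS2 and CL2 (1.16, adjusted p = 0.161) and without HS4 and CL2 (1.01, adjusted p = 0.214). SREBF1, the transcription factor of lipid synthesis, was 8.58, 8.22, 8.16 and 8.42 in HS and 8.96, 8.93, 9.35 and 9.16 in CL, and fell by 0.76 (adjusted p = 0.0295) with no overlap. It was the 1 DE gene of 12 in cholesterol synthesis and uptake, and was kept in all 23 alternatives. DGAT2, which makes triglycerides, rose by 1.10 (adjusted p = 0.123). It lost the call without HS3, HS4, CL2, CL3 or CL4 (adjusted p 0.178 to 0.244) and changed by 0.70 without HS4. Its adjusted p without HS2 and CL2 was 0.164. None of 16 respiratory chain genes was called (2 at an unadjusted p under 0.05).

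Among 22 antioxidant and heme genes the metallothioneins MT4 and MT3, which bind zinc and copper, rose by 1.11 (adjusted p = 0.0848) and 0.74 (adjusted p = 0.0931). MT4 was 15.31, 14.26, 15.50 and 15.34 in HS and 13.34, 14.24, 14.12 and 14.24 in CL, so that HS2 lay next to the CL arrays without overlapping them. HMOX1, heme oxygenase, was 10.87, 10.19, 10.30 and 10.30 in HS and 10.79, 10.69, 11.63 and 11.38 in CL. It fell by 0.71 (adjusted p = 0.113) with HS1 inside the CL range. No other antioxidant or heme gene was called, against backgrounds of 1.81% up and 1.09% down. None of the 3 was called without HS3 or without HS4 (adjusted p 0.179 to 0.245). HMOX1 was also lost without HS2, CL3 or CL4 and MT3 without CL1 or CL4. The MT3 and HMOX1 calls were lost without HS2 and CL2 (adjusted p = 0.194 and 0.161). Of 65 solute carriers 3 were up-regulated, against a background of 1.81%. SLC26A5, known in mammals as prestin of the inner ear, was 9.66, 9.76, 9.90 and 9.75 in HS and 9.17, 8.63, 9.01 and 8.94 in CL, a change of 0.83 ± 0.13 (adjusted p = 0.0161) that was kept in all 23 alternatives. SLC47A2, an efflux transporter of organic cations, and SLC11A1, a metal transporter of macrophages, rose by 0.97 (adjusted p = 0.143) and 0.63 (adjusted p = 0.0871), and 1 of 3 SLC11A1 probes was DE. Neither was called without HS3, HS4 or CL2, where the adjusted p was 0.142 to 0.291, nor SLC11A1 without CL3, nor SLC47A2 without CL1, CL4 or HS1. Both SLC47A2 (adjusted p = 0.188) and SLC11A1 (change 0.49) were also lost without HS2 and CL2, and so was SLC11A1 with normexp (0.53) or with the median of its probes (0.15).

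Signalling genes held 6 up-regulated and 4 down-regulated members of 153 (3.92% and 2.61%, against backgrounds of 1.81% and 1.09%), with medians between -0.06 and 0.03 in the 6 lists. The growth factors VEGFD, of lymphatic vessels, and IGF2, insulin-like growth factor, rose by 1.2 (adjusted p = 0.0582, all 3 probes DE) and 1.05 (adjusted p = 0.0701, 1 of 2 probes DE). VEGFD was 12.05, 11.40, 12.14 and 12.13 in HS and 10.67, 10.48, 11.26 and 10.5 in CL. Its groups were separate, with HS2 the lowest of HS. VEGFD changed by 1.13 without HS3 (adjusted p = 0.16) and IGF2 by 0.90 without CL2 (adjusted p = 0.158), neither of them called. GDF10 and BMP3, ligands of the BMP family, rose by 0.92 (adjusted p = 0.0645) and 0.75 (adjusted p = 0.0931) among 38 BMP and TGF-beta genes. The WNT inhibitors DKK2 and DKK3 went opposite ways, with changes of -1.41 (adjusted p = 0.129) and 0.71 (adjusted p = 0.10). Without HS3 neither GDF10, BMP3, DKK2 nor DKK3 was called (adjusted p 0.169 to 0.209). Without HS4 or CL2 BMP3, DKK2 and DKK3 were lost, with changes of 0.71, -1.29 and 0.47 without HS4. BMP3 was also lost without CL3 or CL4, DKK2 without HS1 or CL4, and DKK3 without CL1, CL3 or CL4. Leaving out HS2 and CL2 ended the calls of IGF2, BMP3 and DKK2 (adjusted p = 0.20, 0.15 and 0.282). The dimmer of the 2 IGF2 probes changed by 0.45 (adjusted p = 0.249) and was not called.

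Of 17 prostaglandin and fever cytokine genes 1 was up-regulated and 2 down-regulated, against backgrounds of 1.81% and 1.09%. In limma 7 of the 17 had an unadjusted p under 0.05, against 19.4% of all named genes. PTGS2, cyclooxygenase 2, which makes the prostaglandins that drive fever, was 9.84, 9.93, 9.78 and 9.85 in HS and 9.10, 9.24, 9.16 and 9.51 in CL. HS arrays were close to each other and all higher, by 0.60 ± 0.14 (adjusted p = 0.0542, both probes DE), just past the fold limit. PTGS2 changed by 0.55 to 0.57 and was not called without HS2, CL1 or CL3. In TR it was between 9.35 and 10.01. LITAF, a regulator of TNF expression, fell by 0.91 (adjusted p = 0.0924), and IL10RA, a receptor chain for interleukin 10, fell by 0.59 (adjusted p = 0.0824). LITAF was lost without HS4, CL2 or CL4 and IL10RA without HS3, HS4, CL1 or CL2 (adjusted p 0.142 to 0.203 over both). RGS2, which ends signalling by Gq proteins, fell by 0.68 (adjusted p = 0.127, lost without HS3, HS4, CL2 or CL4 at 0.192 to 0.263). Without HS2 and CL2 none of PTGS2 (change 0.57, adjusted p = 0.16), LITAF (adjusted p = 0.238), IL10RA (0.21) and RGS2 (0.27) was called, and IL10RA changed by -0.45 with normexp. None of 21 interferon response genes was called (2 at an unadjusted p under 0.05).

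Replication and cell division genes mostly had lower means in HS. Of 44 replication and DNA repair genes 34 had a lower and 10 a higher mean in HS, the median was -0.14, and 2 were down-regulated against a background of 1.09% (MCM5 and BRCA1). MCM5, a subunit of the replicative helicase, was 5.84, 5.45, 5.74 and 5.32 in HS, where 3 of 4 arrays were above background, and 6.22, 6.20, 6.45 and 6.47 in CL. All HS arrays were below all CL arrays, and MCM5 fell by 0.75 (adjusted p = 0.0222). TK1, thymidine kinase, was 7.29, 7.10, 6.76 and 6.90 in HS and 7.72, 7.87, 7.86 and 7.95 in CL, and fell by 0.84 (adjusted p = 0.0339). The TK1 call was kept in 22 of 23 alternatives and that of MCM5 in 21 of the 22 in which it was tested, each lost with normexp (-0.54 and -0.45). BRCA1, of DNA repair, fell by 0.72 (adjusted p = 0.0779) and was lost without HS3, HS4 or CL4 (-0.66 to -0.56) or with normexp (-0.43).

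The kinetochore gene CENPI fell by 0.91 (adjusted p = 0.0537, 3 of 4 HS arrays above background). Outside the rule for named genes, GINS2, ORC1, SLBP and CENPL were singled out after their values were seen. GINS2, a partner of the replicative helicase, was above background on no HS array and on 4 CL arrays (5.23 to 5.61). It was at least 1.46-fold lower in HS, a bound set by the dimmest signal above background on each array and under the fold limit of 1.5. Its call and adjusted p of 0.00542 belong to the measured change of -1.38, which rests on HS signals not above background. ORC1, of the origin complex, fell by 0.89 (adjusted p = 0.109), SLBP, which binds histone messengers, by 0.61 (adjusted p = 0.0808) and CENPL, of the kinetochore, by 0.62 (adjusted p = 0.0398). CENPI was lost without HS3 (-0.81, adjusted p = 0.152). ORC1 was lost without HS3, HS4, CL1, CL2 or CL3, SLBP without HS3, HS4, CL2 or CL4, and CENPL without HS2, HS3 or CL4 (adjusted p 0.0683 to 0.259 over the 3 genes). With HS4 and CL2 left out, or HS2 and CL2, 2 replication genes were DE, and the list's median was between -0.16 and -0.10 whichever array was left out. Leaving out HS2 and CL2 ended the calls of ORC1 and SLBP (adjusted p = 0.189 and 0.174). No replication gene was DE with normexp, nor were CENPI (-0.35), CENPL (-0.37), ORC1 (-0.51), SLBP (-0.51) and GINS2.

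The medians of the cell type lists ran from -0.53 (erythrocyte) to 0.56 (midbrain dopamine neuron), with -0.31 for lymphoid and -0.27 for pituitary genes. The other cell type lists had medians between -0.20 and 0.18. None of 10 oligodendrocyte (median -0.10), 12 astrocyte (0.12) and 12 endothelial genes (-0.18) was called, with 0, 0 and 1 at an unadjusted p under 0.05. These counts cover the listed genes by their brightest probes only, and the DE genes outside the lists include endothelial ones. OLIG2, of the oligodendrocyte lineage, was not called by its brightest probe (-0.34). Its dimmer probes fell by 0.72 and 0.67 and were DE (adjusted p = 0.031 and 0.0339). A dimmer probe of an astrocyte glutamate transporter rose by 0.78 and was DE (adjusted p = 0.118). The brightest probe of that gene changed by 0.51 and was not called. The endothelial median was -0.01 with array weights. All 8 microglia and macrophage genes had a lower mean in HS (median -0.20, range -0.78 to -0.08), none of them called and 3 at an unadjusted p under 0.05. The 5 erythrocyte genes had a median of -0.53 with none called or at an unadjusted p under 0.05, and their level was highest on CL2 (1.87) and CL3 (1.0). HBA1, a hemoglobin chain, was 16.39 on CL2 and 15.52 on CL3 and between 13.45 and 15.12 on the other 6 arrays. TTR, the choroid plexus marker, was 12.91 on HS2 and between 8.98 and 10.55 on the other 7. MYH11, smooth muscle myosin, rose by 1.27 (adjusted p = 0.127, 3 of 7 probes DE), MSX1, of choroid plexus and ependyma, fell by 0.66 (adjusted p = 0.146) and the slow muscle myosin MYH7 fell by 0.85 (adjusted p = 0.0504). Each was the 1 call of its list. Of 10 smooth muscle and pericyte genes 4 had a higher and 6 a lower mean in HS (median -0.08). Of 4 choroid plexus and ependyma genes 2 had a higher and 2 a lower mean (median 0.13, range -0.75 to 2.07). Among 11 striated muscle genes 4 had a higher and 7 a lower mean. MYH11 was lost without HS2, HS3, HS4, CL1, CL2 or CL4 (adjusted p 0.189 to 0.262) and MSX1 without any array but HS1 (0.169 to 0.293). Neither was called without HS2 and CL2 (0.352 and 0.358), and the median of the 7 MYH11 probes changed by 1.03 (adjusted p = 0.177). MYH7 was 7.94 to 8.16 in HS and 8.25 to 9.34 in CL and, unlike TNNT3 and MYL1, was not highest on HS2 among HS arrays. Its highest array was CL2, which was the highest array in 10 of the 11 striated muscle genes. None of 17 collagens (median -0.08), 16 integrins, laminins and syndecans (-0.14) and 10 matrix remodelling enzymes (0.01) was called, with 1, 2 and 1 at an unadjusted p under 0.05. The part of blood, muscle and other tissue in the results was not tested beyond the values without HS2 and CL2.

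Of 125 DE genes, 7 were kept in all 23 alternatives, among them SREBF1, SLC26A5, BLEC1, TPRA1, S100A11 and PLD1, and 5 in all but 1, among them DRD2, CHRM4 and TK1. Of the 66 DE genes named here, 37 lost the call without HS2 and CL2 and 51 without HS4 and CL2. The 15 that kept it without HS4 and CL2 were BLEC1, BRCA1, CENPL, DRD2, EFNB2, GINS2, MCM5, PLD1, S100A11, SGCB, SLC26A5, SREBF1, TH, TK1 and TPRA1. Among them the GINS2 call rests on HS signals not above background. BLEC1, a lectin-like gene named because of its values, was 9.22, 9.22, 9.58 and 9.62 in HS and 8.36, 8.32, 8.31 and 8.30 in CL. The gap between the groups was much wider than the spread within CL, and BLEC1 rose by 1.09 ± 0.15 (adjusted p = 0.0102). TPRA1, a membrane protein, was 6.68, 6.27, 7.25 and 7.28 in HS and 5.26, 5.45, 5.69 and 5.68 in CL, and rose by 1.35 ± 0.24 (adjusted p = 0.0284), or by 0.75 with normexp. SGCB, a sarcoglycan named for the same reason, rose by 0.73 (adjusted p = 0.016), but the other 2 of its 3 probes changed by -0.25 and -0.24, so that by the median probe SGCB was lower in HS and not called (adjusted p = 0.338). S100A11, a calcium-binding protein, was 12.81, 12.65, 12.27 and 12.39 in HS and 13.63, 13.17, 13.51 and 13.76 in CL. It fell by 0.99 ± 0.20 (adjusted p = 0.0386), with both probes DE. PLD1, phospholipase D, likewise named after its values were seen, was 9.65, 9.61, 9.30 and 9.25 in HS and 10.25, 10.48, 10.26 and 10.00 in CL, and fell by 0.80 ± 0.12 (adjusted p = 0.0144). In TR, PLD1 was between 9.49 and 9.59, inside the HS range.

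**Figure D5:**
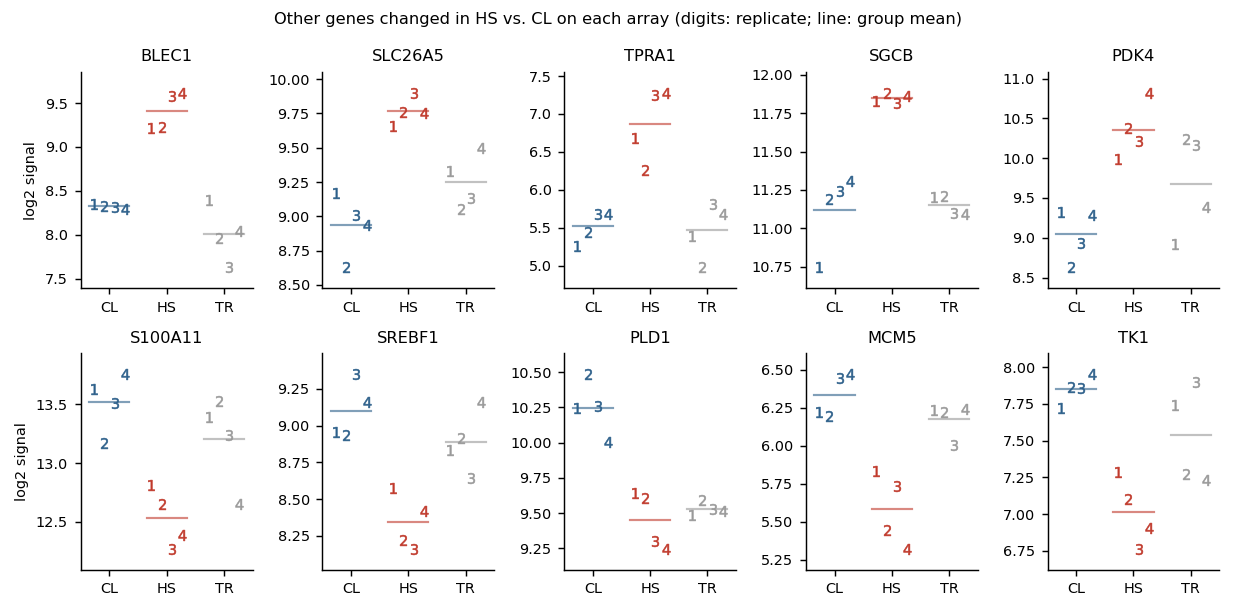
Log2 signal (y axis) of 10 other genes in CL, HS and TR, where each digit is the array of that replicate number and the line is the group mean. In all 10 genes the HS and CL arrays do not overlap, and in BLEC1 the CL arrays lie between 8.30 and 8.36.

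Further changes lay in genes with a range of roles, while some DE genes not named here changed more, by up to 2.85 (adjusted p = 0.113). COCH, a secreted matrix protein, rose by 2.13 (adjusted p = 0.0513, 1 of 4 CL arrays above background), LYG2, a lysozyme, by 1.53 (adjusted p = 0.0517, 2 of 4 CL arrays) and EXFABP, an extracellular lipid carrier, by 1.37 (adjusted p = 0.0772). LGALS1A, a galectin, fell by 1.0 (adjusted p = 0.0658) and NOC2L, a regulator of histone acetylation, fell by 1.38 (adjusted p = 0.0937, 1 of 4 HS arrays above background). CHIR-A2, an immunoglobulin-like receptor, fell by 0.88 (adjusted p = 0.108), but 2 of its 5 probes were DE and the others changed by -0.46 to 0.17, and probes in this multigene family may share targets. Other genes of the family were also DE and lower in HS (-0.62 and -0.77, adjusted p = 0.0919 and 0.13). Their calls were kept in 12 and 11 of 23 alternatives. EXFABP was lost without HS3, HS4 or CL3, LGALS1A without HS3 or CL2, NOC2L without CL2, CL3 or CL4 and CHIR-A2 without HS3, HS4, CL2, CL3 or CL4 (adjusted p 0.151 to 0.239 over the 4 genes). Without HS2 and CL2 LYG2, NOC2L and CHIR-A2 were lost (adjusted p = 0.151, 0.204 and 0.17), and without HS4 and CL2 COCH (0.21), LYG2 (0.182) and EXFABP (0.243) were among those lost. With normexp the genes with arrays not above background changed less, COCH by 0.81 and LYG2 by 0.70, both still called, and NOC2L by -0.40, not called. The median of the CHIR-A2 probes changed by -0.46.

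Of other genes that the study picked out from these samples, the lysophosphatidic acid receptor LPAR4 rose by 0.67 (adjusted p = 0.0937), and the membrane protein EMP1 fell by 0.76 (adjusted p = 0.117). LPAR4 was lost with CL2, CL3, HS3 or HS4 left out and EMP1 without HS1, HS3, HS4, CL2, CL3 or CL4 (adjusted p 0.166 to 0.219 over both), and both without HS2 and CL2 (0.186 and 0.208). PDGFB, a growth factor of pericytes, had no overlap between the groups and a change of -0.50 (interval -0.83 to -0.18, adjusted p = 0.0966), under the fold limit, and it passed without HS3 at -0.61. The heparan sulphate carrier SDC1 changed by -0.35 (-0.79 to 0.08) and the cardiac actin ACTC1 by -0.72 (-5.03 to 3.58). ACTC1 was 15.57 on CL2 and 10.85 on HS2, the arrays with muscle signal, and between 5.27 and 7.82 on the other 6.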

How the data were processed

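RNA of 12 hypothalami was measured on 1-colour Agilent chicken arrays with 43603 probes besides controls. After scanning, the authors extracted the spots with Feature Extraction 10.7.3.1, and the deposited intensity is the background-subtracted, detrended signal of each spot, not scaled between arrays. The authors also deposited a log2 table of quantile-normalized values, used as an alternative after its 43606 entries were matched to features by their values (65.6% had their own number).

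Intensities were taken to log2, 472 outlier spots were left out, arrays were quantile-normalized and spots of a probe averaged. Probes above background on all 4 arrays of a group were kept (34929), and 34909 could be tested. The test was limma 3.58.1 in R 4.3.3, with 3 groups fitted to 12 arrays and Benjamini-Hochberg adjustment, and was checked on simulated data. The limits are those of the study's methods. Arrays have no counting depth, and their number limits the precision. Spread is between birds.

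RefSeq (GRCg7b) named 10185 probes for 4814 genes and accessions in the study 9 more. A gene is given by its brightest tested probe. Changes are differences of mean log2 signals, HS minus CL. Levels of different genes are not comparable.

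Text genes were the 8 largest rises and falls among DE genes with no overlap, up to 5 DE members of a list, the 2 brightest in lists without one, genes the study names, and cell type markers. Not every one is named, and 1 is not reported here. The members and lists were chosen with earlier results of these data known. Alternatives changed the scaling, background, filters, outlier spots, FDR limit, test, samples, block, weights, values and probe per gene, and left out each array or HS2 and CL2. Leaving out HS4 and CL2 was chosen after seeing the data. Of HS and CL arrays with the same number, the deviations correlated at -0.152, 0.367, 0.00693 and 0.138. Pairs with unlike numbers correlated at -0.262 to 0.238. Numbers are used here only to name birds, and so few values cannot show whether they carry a pairing. Promoter motifs were not searched.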

Additional observations from a re-analysis of the deposited data

Results flagged for a closer look

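In 14 of 193 groups of 4 arrays (HS and CL of the genes named above, OLIG2 not included), the highest or lowest array stood apart from the other 3 by more than the critical share of the group's range, where chance gives about 1 in 20. The values below are that share and the log2 signal of the array. HS4 stood apart in DRD2 (0.835, highest at 7.12), EFNA5 (0.852, highest at 9.43) and HSP90AA1 (0.913, lowest at 17.25). CL2 stood apart in CHIR-A2 (0.893, highest at 13.52), MSX1 (0.88, highest at 13.62), MYL1 (0.95, highest at 13.69) and GRIA2 (0.895, lowest at 13.12). HS1 stood apart in HMOX1 (0.846, highest at 10.87) and EMP1 (0.911, lowest at 7.34), and HS2 in VEGFD (0.884, lowest at 11.40) and MT4 (0.847, lowest at 14.26). HS3 was lowest in NFIL3 (0.851, at 9.45), CL1 lowest in MT4 (0.868, at 13.34) and CL4 highest in CENPL (0.885, at 6.45).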

How the results depend on the processing

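Of 66 DE genes named, 2 changed direction in an alternative, SGCB (-0.24) and PSMD2 (-0.086) with the median probe per gene, where 4 others lost their call. For a gene with an even number of probes, such as IGF2, that setting took the lower of the 2 middle changes, not their mean. The probe and gene counts stayed within 1.5 times the main counts except as follows. With normexp background correction 667 probes were DE, 236 of them lower, and 24 genes were lower. With probes above background on all 12 arrays, 390 probes were lower. With FDR under 0.05 there were 349 DE probes (177 higher, 172 lower) and 25 genes (15 and 10), and by the methods' t-test 413 probes (218 and 195) and 37 genes (26 and 11). The FDR limit ended the calls of 50 of the 66 DE genes named, and the t-test those of 44. Without HS2 and CL2 there were 753 probes (364 higher, 389 lower) and 65 genes (40 and 25), of which 49 were among the 125. Without HS4 and CL2 there were 418 probes (187 and 231) and 31 genes (11 and 20), of which 21 were among the 125. Leaving out 1 array gave 492 to 1866 DE probes (229 to 964 higher, 263 to 912 lower) and 40 to 188 DE genes (22 to 115 higher, 18 to 73 lower), lowest without HS3. Of the 125 genes 86 were lost without HS3, 77 without HS4 and 77 without CL2, and 15 without HS1. With only the HS and CL arrays in the fit there were 877 probes and 89 genes, of which 78 were among the 125. There 24 of the 66 DE genes named lost their call. The fit with the replicate block gave 1248 probes and 122 genes (83 higher, 39 lower), of which 111 were among the 125. Under the block NPY was called (adjusted p = 0.142), while AVP (0.181), CALB1 (0.196), CHIR-A2 (0.155), DKK2 (0.172), EMP1 (0.156), HMOX1 (0.152), RGS2 (0.175) and STMN2 (0.157) lost their calls. The cause of these differences was not tested, and the settings that leave out arrays also rest on fewer birds. Genes near background, such as TH in CL and GINS2 in HS, have the least certain changes.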
